A study of Mus musculus with 4 samples.

Results

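The RNA levels of 8 genes that control p53, or belong to its family, were described in 4 mouse sarcomas. The genes were chosen by symbol for their known roles and were all found among the 56691 genes of the deposited table: the ubiquitin ligase genes Mdm2, Cop1 and Rchy1, the Mdm2 relative Mdm4, the phosphatase gene Ppm1d, the deubiquitinase gene Usp7, and the p53 paralogs Trp63 and Trp73. Of these, 7 passed a filter on low counts and Trp73 did not. The sarcomas arose spontaneously in W/+ mice, which carry 1 mutant and 1 wild-type Trp53 allele in the germline. The labels write this genotype as p53R282W/+, after the human residue, and all 4 samples share that label. Whether each tumor kept its wild-type allele is not given. The tumors fell into a treated and a control group. The ATO group (n = 2, ATO 1 and ATO 2) came from mice given arsenic trioxide, a compound that restores activity to some p53 mutants, in the drinking water from adulthood until natural death. The PBS group (n = 2, PBS 1 and PBS 2) came from mice not given ATO, for which the labels name PBS. The comparison asks whether genes of the p53 circuit differed in treated tumors. The mice were of the C57BL/6N background, and the labels of all 4 also carry a growth protocol for cultured cells, whereas the study's methods describe tumor tissue, as which the samples are treated here. Neither the age of each mouse at collection nor the histological type of each sarcoma is given in the labels.

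p53 is a transcription factor that is kept at a low level in unstressed cells, mainly because Mdm2 binds it, hides its activation domain and marks it with ubiquitin for destruction. Mdm2 is itself a transcriptional target of p53, so that active p53 raises the RNA of its own inhibitor, and this negative feedback loop makes Mdm2 RNA a usual readout of p53 activity. Mdm4 is a relative of Mdm2 that represses p53 through the same binding surface and forms heterodimers with Mdm2. Cop1 and Rchy1 (also called Pirh2) are further ubiquitin ligases of p53, Ppm1d (Wip1) removes phosphates that activate p53, and Usp7 removes ubiquitin from both Mdm2 and p53. Mdm2 and Mdm4 are known to be amplified in some human sarcomas, Mdm2 in liposarcoma in particular.

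Levels are given as FPKM, the count divided by gene length and library total, and as CPM, counts scaled to a common library size by TMM normalization, which also allows for a few abundant genes that take reads from the rest. Total counts ranged from 15259695 to 18134000. ATO 2 stood apart in that mitochondrially encoded genes took 14.7% of its counts, against 1.98% to 2.59% in the others. By FPKM 62.1% of the genes tested were lower in ATO 2 than in ATO 1, and by CPM 50.02%. The part of the mitochondrial share in this was not tested. The 6 mesenchymal markers (Vim, Col1a1, Col1a2, Col3a1, Pdgfrb and Thy1) were detected in every tumor, with a summed level of 8882 to 35132 CPM that is mostly collagen. Vim (2533 and 3486 CPM in PBS, 617 and 1578 in ATO), Pdgfrb (496 and 351, 197 and 159) and Thy1 (314 and 273, 10.9 and 126) lay below both PBS tumors in both ATO tumors. The groups overlapped for Col1a1, Col1a2 and Col3a1, whose fitted log2 fold changes were 0.25, 0.97 and -1.24. All 8 skeletal muscle markers and all 6 adipocyte markers lay above both PBS tumors in both ATO tumors. The muscle sum was 12.1 and 294 CPM in PBS and 41259 and 2765 CPM in ATO, and the adipocyte sum was 2.52 and 3.78 CPM in PBS and 897 and 2303 CPM in ATO. None of these mesenchymal, muscle or adipocyte markers passed the adjusted p of 0.05 by edgeR (smallest 0.570), and 7 of 8 muscle, 6 of 6 adipocyte and 0 of 6 mesenchymal markers had an unadjusted p under 0.05. Adipoq, Plin1, Cidec, Lep and Cfd had 0 to 7 counts in each PBS tumor and passed the low-count filter only through the ATO tumors. Their part in the counts of adipocyte markers is therefore no support. Of the muscle markers, Ckm and Mb had 5 and 3 counts in PBS 1 and 448 and 95 in PBS 2. These genes too would not have passed the filter on the PBS tumors alone. Their part in the muscle counts is likewise no support. Among all genes tested, 19.7% lay above both PBS tumors in both ATO tumors by CPM, and 20.2% lay below. The part of these tissue markers in the results below was not tested. In bulk tumor RNA, fewer cells of a type and less RNA per cell cannot be told apart.

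By edgeR's quasi-likelihood test, 0 of the 7 members tested passed a Benjamini-Hochberg adjusted p of 0.05, as did 0% of the 17188 genes tested, where the smallest adjusted p was 0.570. At an unadjusted p under 0.05 there was 1 member, Trp63, where the share of all genes was 8.51%. Trp63 passed the low-count filter only through the ATO tumors. With its few PBS counts it was tested only because it was high in ATO, and its part in each count below is no support. Fitted levels were higher in ATO for 6 of 7 members and for 49.2% of all genes, and for 5 of the 6 members other than Trp63. On the CPM scale both ATO tumors lay above both PBS tumors for 3 members (Mdm2, Mdm4 and Trp63, thus 2 of 6 without Trp63) and below them for 1 (Rchy1), and the corresponding shares of all genes were 19.7% and 20.2%. The groups overlapped for Ppm1d, Usp7 and Cop1. By FPKM the non-overlapping members were Trp63 above and Rchy1 below, with shares of all genes of 12.8% and 29.6%. The median log2 fold change was 0.17 over the 7 members, 0.11 without Trp63 and -0.016 over all genes tested. With 2 tumors a group, these p-values set the group difference against the spread between tumors, which edgeR estimates partly from other genes. Whether the mice shared a litter or cage is not given. DESeq2 called 754 genes, 4.13% of those it gave an adjusted p, and edgeR without the low-count filter called 541, 1.75% of those tested, with Trp63 as the 1 member in each. All other alternatives, limma and each tumor left out in turn included, called 0 genes.

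**Figure D1:**
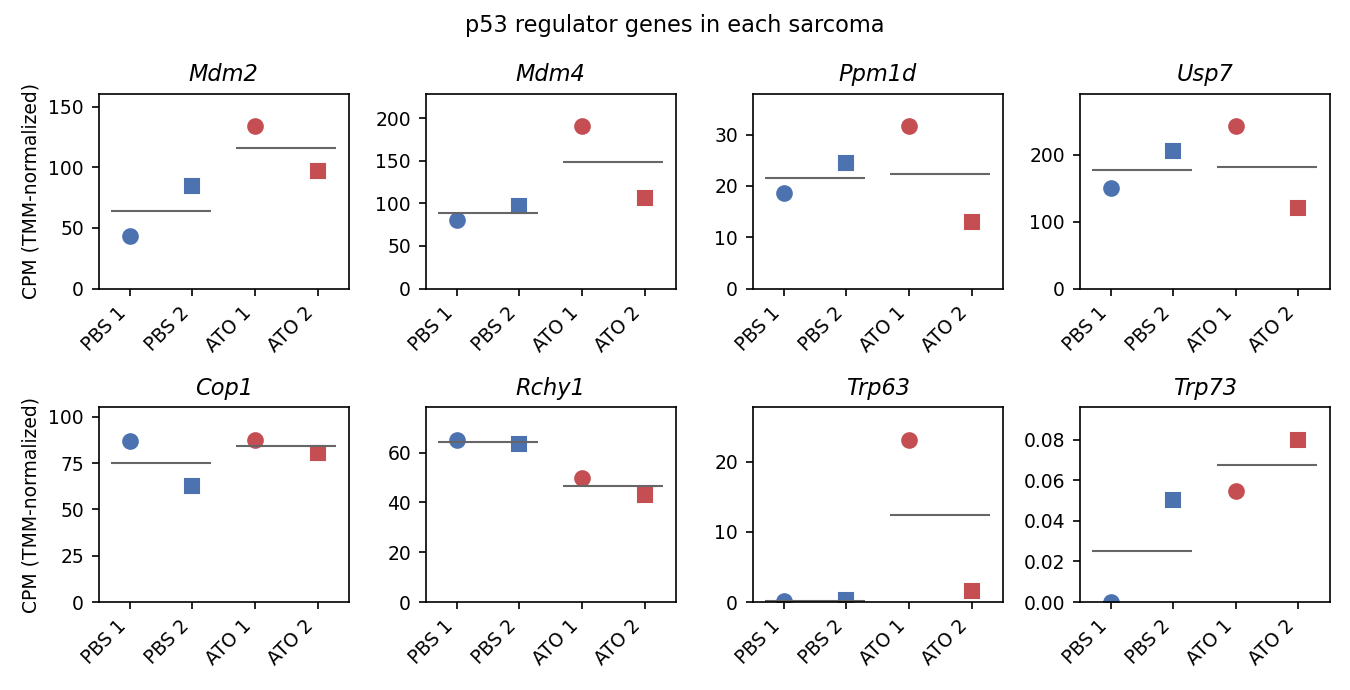
TMM-normalized CPM (linear axes starting at 0, 1 scale per gene) of the 8 genes in each sarcoma, PBS in blue and ATO in red, with circles for replicate 1 and squares for replicate 2 and horizontal lines at the group means. On this scale Mdm2 and Mdm4 are higher and Rchy1 is lower in both ATO sarcomas (by FPKM Mdm2 and Mdm4 overlap), Trp63 stands out at 23.2 CPM in ATO 1, and Trp73 is near 0 in all 4.

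Mdm2 (ENSMUSG00000020184, chromosome 10 of GRCm38, 117688875 to 117710758, minus strand) had 832 counts in PBS 1, 1680 in PBS 2, 2443 in ATO 1 and 1216 in ATO 2. As CPM these were 43.8, 84.6, 134 and 97.4. Both ATO tumors thus lay above both PBS tumors on this scale, although the gap between ATO 2 and PBS 2 was smaller than the gap between the PBS tumors. The means were 116 ± 26.0 CPM (SD, n = 2) in ATO and 64.2 ± 28.9 CPM (SD, n = 2) in PBS, and the log2 fold change was 0.85 (SE 0.49, 95% interval -0.43 to 2.14, edgeR adjusted p 0.673). The interval includes 0, and the estimate was 0.45 without PBS 1 and 1.40 without PBS 2. By FPKM the order changed, since ATO 2 at 15.68 lay between PBS 1 at 9.37 and PBS 2 at 18.39, below ATO 1 at 26.5.

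The response of Mdm2 to p53 is known to depend on sites in its first intron, just before exon 2, where a second promoter lies. They are shown here because this is the member whose regulation by p53 is best defined. The stretch below, chr10:117710047-117710144 of GRCm38 on the minus strand, was read from a GENCODE M21 transcript whose first exon begins in that intron. Capitals mark the 20-base runs that differ from 2 adjoining p53 half-sites of the consensus in at most 3 bases, a limit set after the sequence was seen. There were 2 such runs among the 264 intronic bases that the transcript covers, and 5.54% of 32851 RefSeq promoter windows cut to the same length hold at least 1, and 0.359% at least 2.
Mdm2 intron 1: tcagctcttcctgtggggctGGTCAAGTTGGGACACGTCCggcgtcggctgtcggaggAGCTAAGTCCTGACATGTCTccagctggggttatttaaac

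The promoter windows of RefSeq on GRCm38.p6 (250 bases before to 50 after each start) were also searched for the 10-base p53 half-site consensus, which reads the same on both strands. Windows were at hand for 7 members (10 windows). A half-site was found in 3 of the 10 windows, those of Mdm2, Ppm1d and 1 of 2 starts of Rchy1, and in 8.36% of all windows. None of the 10 held 2 half-sites within 13 bases of each other, an arrangement found in 0.0731% of all windows. The half-sites are printed in capitals with 10 bases on each side, because Mdm2, Ppm1d and Rchy1 are all described as p53 targets. They lie at chr10:117710925-117710954 (minus strand), chr11:85311112-85311141 (plus strand) and chr5:91962627-91962656 (minus strand). A match of letters is not evidence of binding.
Mdm2 promoter: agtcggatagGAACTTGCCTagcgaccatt
Ppm1d promoter: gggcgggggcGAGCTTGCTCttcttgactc
Rchy1 promoter: cactatgacaGAGCTTGTCTcctcaaggtg

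Mdm4 (ENSMUSG00000054387, chromosome 1, 132959484 to 133030561, minus strand) had 1522 counts in PBS 1, 1915 in PBS 2, 3479 in ATO 1 and 1327 in ATO 2. The CPM values of Mdm4 were 80.1, 96.5, 191 and 106 in the same order. ATO 1 was well above the other 3 tumors, whereas ATO 2 exceeded PBS 2 only slightly. The log2 fold change was 0.75 (SE 0.47, 95% interval -0.47 to 1.97, edgeR adjusted p 0.688), and it was 0.25 without ATO 1. By FPKM the gene was at 5.89 and 7.20 in PBS and at 12.96 and 5.88 in ATO, so that ATO 2 was level with PBS 1 on that scale.

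Cop1 (ENSMUSG00000040782, chromosome 1, 159232320 to 159347640, plus strand) was the steadiest of the ligase genes within ATO. Its CPM was 86.9 in PBS 1, 62.7 in PBS 2, 87.7 in ATO 1 and 80.5 in ATO 2, and PBS 1 lay between the 2 ATO tumors. The log2 fold change was 0.17 (SE 0.38, 95% interval -0.82 to 1.16, edgeR adjusted p 0.922), and its sign turned in limma on FPKM with either pseudocount and without PBS 2.

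Rchy1 (ENSMUSG00000029397, chromosome 5, 91948904 to 91963068, minus strand) was the 1 member whose ATO tumors both lay below the PBS tumors. It stood at 65.3 CPM in PBS 1 and 63.5 in PBS 2, and at 49.9 in ATO 1 and 43.1 in ATO 2. The 2 tumors of each group were close, at 46.5 ± 4.83 CPM (SD, n = 2) in ATO and 64.4 ± 1.23 CPM (SD, n = 2) in PBS. By FPKM, too, both ATO tumors (13.29 and 9.34) lay below both PBS tumors (18.83 and 18.60). The log2 fold change was -0.47 (SE 0.35, 95% interval -1.40 to 0.46, edgeR adjusted p 0.738), and it stayed negative with each tumor left out. In GENCODE M21, 680 of the 3773 exonic bases of Rchy1 are shared with Thap6 on the opposite strand, and no source used here says whether counting used strand, so that reads of this pair may not be separated. Thap6 itself had 274 and 203 counts in PBS and 219 and 155 in ATO.

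Ppm1d (ENSMUSG00000020525, chromosome 11, 85311244 to 85347066, plus strand) encodes a phosphatase that acts in the same feedback loop as Mdm2. It had 18.6 CPM in PBS 1, 24.4 in PBS 2, 31.7 in ATO 1 and 12.98 in ATO 2. The ATO tumors held both the highest and the lowest value and differed 2.44-fold from each other. The fitted log2 fold change was 0.056 (SE 0.59, 95% interval -1.48 to 1.59, edgeR adjusted p 0.986), with -0.74 without ATO 1 and 0.57 without ATO 2. Its direction also turned in each limma fit on FPKM, with the replicate block and without PBS 1.

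Usp7 (ENSMUSG00000022710, chromosome 16, 8689595 to 8792308, minus strand) followed the same order of tumors as Ppm1d. Its CPM was 150.01 in PBS 1, 204.8 in PBS 2, 243 in ATO 1 and 120.3 in ATO 2. Again the 2 ATO tumors enclosed the PBS tumors. The log2 fold change was 0.033 (SE 0.53, 95% interval -1.36 to 1.43, edgeR adjusted p 0.992), and it turned negative in the same alternatives as that of Ppm1d. The ratio of Ppm1d to Usp7 was nearly constant, between 0.264 and 0.320 in the 4 tumors.

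**Figure D2:**
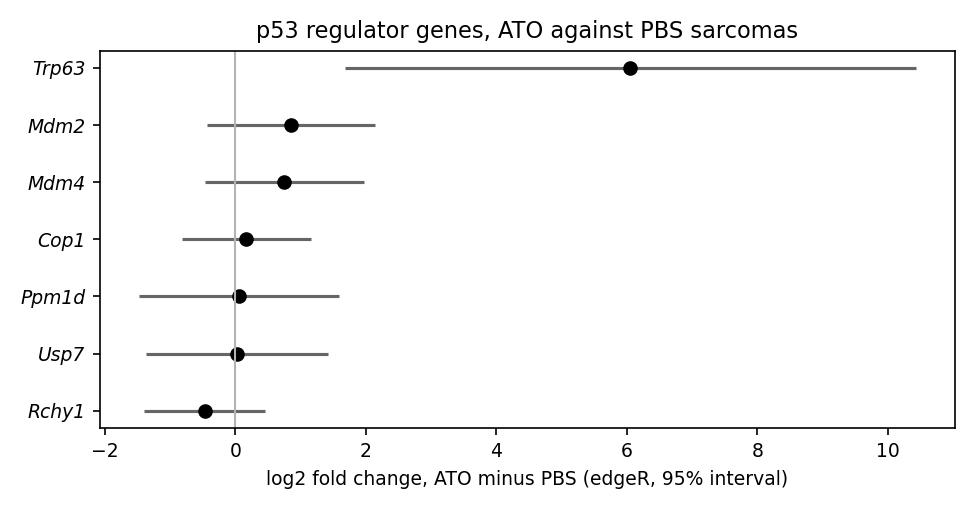
Fitted log2 fold change of the 7 genes tested, ATO minus PBS (edgeR; points are estimates and lines 95% intervals). The interval of Trp63 (1.68 to 10.43) lies above 0, those of the other 6 include 0, and no gene passed the adjusted p of 0.05.

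FPKM, which is per length, also allows the genes to be set in order. By mean FPKM over the 4 tumors the order was Usp7 (23.6), Mdm2 (17.5), Rchy1 (15.02), Mdm4 (7.98), Ppm1d (7.07), Cop1 (4.54), Trp63 (0.740) and Trp73 (0.0075). The ranges over tumors overlapped between every pair of neighbours from Usp7 to Cop1, whereas Cop1 at 3.76 to 5.40 lay above Trp63 at 0.01 to 2.77. Within a tumor, Mdm2 ranked above Rchy1 in both ATO tumors and below it in both PBS tumors. In PBS 2 these genes were almost level, at 18.39 FPKM for Mdm2 and 18.60 for Rchy1. Mdm4 likewise ranked above Ppm1d in both ATO tumors and below it in both PBS tumors.

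Ratios of 2 genes in the same tumor cancel the library scaling altogether. Among the 15 ratios of the 6 well expressed members, the groups did not overlap for 7, or 46.7%, against 38.8% of the ratios of all pairs of tested genes counted in every tumor. The ratio of Mdm2 to Rchy1, from length-scaled levels, was 0.498 in PBS 1, 0.989 in PBS 2, 2.00 in ATO 1 and 1.68 in ATO 2. Mdm2 to Usp7 stood at 0.446 and 0.631 in PBS and at 0.845 and 1.24 in ATO. Mdm2 to Ppm1d was 1.47 and 2.16 in PBS and 2.64 and 4.69 in ATO. In all of these the ATO tumors were higher, with log2 differences of 1.38, 0.95 and 0.98. Mdm4 also lay higher in ATO relative to Usp7 (0.280 and 0.247 in PBS, 0.413 and 0.464 in ATO), a log2 difference of 0.73 with the smallest standard error of the 7 (0.12). Relative to each other, Mdm2 and Mdm4 overlapped, with ratios of 1.59 and 2.55 in PBS and 2.04 and 2.67 in ATO. The log2 difference of that ratio was 0.21 (SE 0.39, exact two-sided permutation p 0.667, adjusted p 0.706 over 18 ratios). The smallest exact p that 2 against 2 tumors allow is 0.333, which 10 of the 18 ratios computed reached, with an adjusted p of 0.6.

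**Figure D3:**
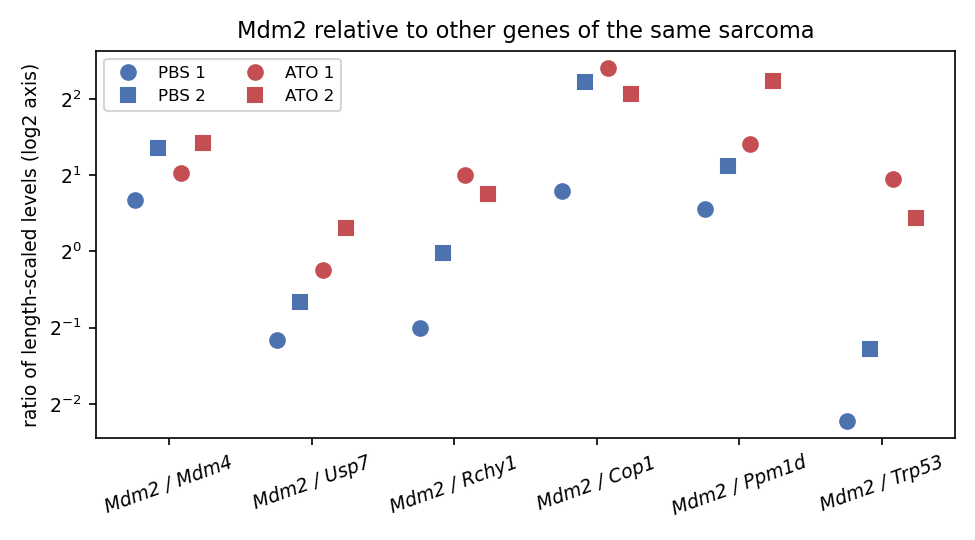
Ratio of length-scaled levels of Mdm2 to each of 6 other genes in the same sarcoma (log2 axis), PBS in blue and ATO in red, circles for replicate 1 and squares for replicate 2. Both ATO sarcomas lie above both PBS sarcomas relative to Usp7, Rchy1, Ppm1d and Trp53, and the groups overlap relative to Mdm4 and Cop1.

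Trp53 itself, the substrate of these regulators, fell on the other side. It had 162 and 164 CPM in PBS and 55.2 and 57.4 CPM in ATO, with no overlap. Of all genes tested, 20.2% lay below in this way. The fitted log2 fold change of Trp53 was -1.53 (95% interval -2.49 to -0.57, SE 0.37), at an edgeR unadjusted p of 0.0098 and an adjusted p of 0.570. The counts do not tell the mutant from the wild-type allele. Mdm2 RNA per Trp53 RNA was 0.215 and 0.412 in PBS and 1.93 and 1.35 in ATO, and Mdm4 per Trp53 was 0.135 and 0.161 in PBS and 0.946 and 0.507 in ATO. Cdkn1a, the p21 gene and a p53 target like Mdm2, differed by more than Mdm2: the ratio of Mdm2 to Cdkn1a was 1.67 and 1.03 in PBS and 0.350 and 0.318 in ATO.

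The genes whose pattern over the 4 tumors was nearest to that of Mdm2, by the root mean square difference of centred log2(CPM + 1), were Ucp2 (0.041), Stat2 (0.044), Oas1a (0.061), Khk (0.062) and Slc29a1 (0.065). Of all tested genes, 11 lay within 0.1. Mdm4 ranked 449 in likeness to Mdm2 (0.291), ahead of Usp7 (rank 3441) and Ppm1d (rank 4493), and Rchy1 came last of these members (rank 8763). With 4 tumors such likeness is a description of these libraries.

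Neighbouring genes were examined because Mdm2 and Mdm4 lie in regions known to be amplified in sarcoma. Within 500 kb of Mdm2, 9 genes were tested, whose fitted log2 fold changes had a median of 0.025 and ranged from -1.28 to 2.26. By CPM, Slc35e3 and Lyz1 (22.2%, against 19.7% of all genes) lay above both PBS tumors in both ATO tumors, and the groups overlapped for the other 7, among them Nup107, Rap1b, Cpm, Yeats4 and Cpsf6. By FPKM 0 of the 9 lay above and 1 (Mdm1) below. Slc35e3 was at 41.2 CPM in ATO 1, 20.6 in ATO 2, 19.3 in PBS 1 and 12.2 in PBS 2. Around Mdm4, 14 genes were tested, whose median log2 fold change was 0.25. By CPM the ATO tumors there lay above for 5 (Ppp1r15b, Rbbp5, Plekha6, Cntn2 and 6030442K20Rik), or 35.7% against 19.7% of all genes, and below for 1 (Etnk2), or 7.14% against 20.2%. By FPKM 2 lay above (Cntn2 and 6030442K20Rik) and 2 below (Etnk2 and Lrrn2). Cntn2 (12 and 4 counts in PBS) and 6030442K20Rik (10 and 7) would not have passed the low-count filter on the PBS tumors alone. Etnk2 (2 and 1 counts in ATO) passed it only through the PBS tumors. The part of these genes in the counts around Mdm4 is therefore no support. Gene copy number was not measured.

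Trp63 (ENSMUSG00000022510, chromosome 16, 25683763 to 25892102, plus strand) encodes p63, best known as the factor that sets up the basal layer of skin and other stratified epithelia, and also as the gene mutated in some limb and skin malformations. It had 2 counts in PBS 1, 5 in PBS 2, 422 in ATO 1 and 19 in ATO 2, or 0.01, 0.03, 2.77 and 0.15 FPKM. Nearly all of the signal came from a single tumor, since ATO 1 held 95.7% of the ATO counts. The fitted log2 fold change was 6.05 (SE 1.67, 95% interval 1.68 to 10.43, edgeR unadjusted p 0.0169, adjusted p 0.570). It was 3.02 without ATO 1 and 6.97 without ATO 2. As said above, with so few PBS counts this gene passed the low-count filter only because it was high in ATO, so its test is no support.

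The ratios of the raw counts show how unevenly the gene was spread. Per total count, the pooled level was 66.9 times higher in ATO than in PBS (exact binomial 95% interval 32.2 to 167), and for ATO 2 alone it was 6.30 times higher (2.54 to 17.7). ATO 1 exceeded ATO 2 by 18.7 times (11.8 to 31.4), more than ATO 2 exceeded PBS. These intervals cover counting error only and compare libraries, not treatments. The forms of p63 with and without the activation domain cannot be told apart in counts per gene.

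The basal epithelial markers did not follow Trp63. Summed over Krt5, Krt14, Krt15, Dsg3, Col17a1 and Dsc3 they were at 0.220 CPM in ATO 1, where Trp63 was highest, with 5 of 6 genes at 3 counts or fewer. In ATO 2 the sum was 23.7 CPM, led by Krt15, and in PBS it was 0.421 and 0.504 CPM. None of these markers passed the low-count filter. The sums of ATO 1 and of both PBS tumors lie near the limit of detection, so their order is not a measured difference. Krt5, Krt15, Dsg3, Col17a1 and Dsc3 were listed at an FPKM of 0 in ATO 1. ATO 1 was instead the tumor with the most skeletal muscle RNA (41259 CPM summed over 8 genes) and the most osteoblast RNA. Over the 6 osteoblast markers the sum was 4168 CPM in ATO 1, 1780 in ATO 2, 942 in PBS 1 and 188 in PBS 2, mostly from Spp1. Without Spp1 the sums were 1137, 27.9, 88.6 and 30.3 CPM in the same order, so that ATO 1 alone stood out. Sp7, which specifies osteoblasts, was at an FPKM of 40.5 in ATO 1 and of 0 to 0.39 in the others, and Ibsp, a bone matrix gene, was at 290.9 in ATO 1 and of 0.29 to 0.35 in the others. The part of these tissues in the Trp63 level was not tested.

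**Figure D4:**
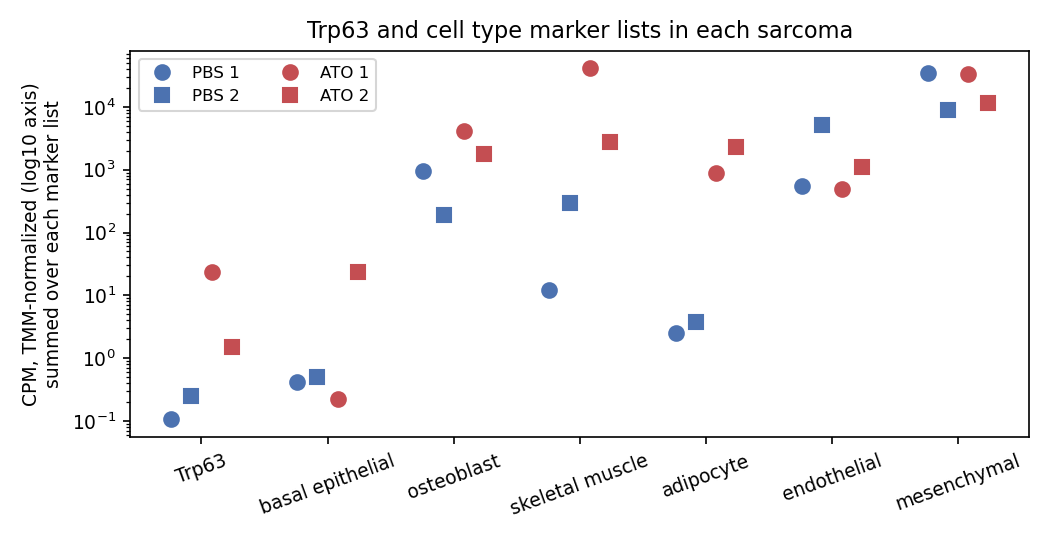
Level of Trp63 and summed level of 6 marker lists in each sarcoma (TMM-normalized CPM, log10 axis), PBS in blue and ATO in red, circles for replicate 1 and squares for replicate 2. ATO 1 is highest for Trp63, the osteoblast list and the skeletal muscle list. For the basal epithelial list, ATO 1 and both PBS sarcomas lie near the limit of detection.

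Trp73 (ENSMUSG00000029026, chromosome 4, 154056253 to 154140208, minus strand), which encodes p73 and has a role in neurons and multiciliated cells, was at or under the limit of detection. It had 0 counts in PBS 1 and 1 count in each of the other tumors. A count of 0 allows up to 3 counts, which is 0.158 CPM in PBS 1, so that no fold change is given. Foxj1, a regulator of multiciliated cells, was at an FPKM of 0.02 to 0.28, and the 5 multiciliated markers summed to between 9.07 and 15.2 CPM, of which Ccdc39 gave 6.65 to 10.99 CPM and the other 4 together 2.42 to 4.18 CPM.

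Of a wider list of 48 regulators of p53, 47 had a row under the symbol listed and all 47 were tested. By edgeR 0 passed an adjusted p of 0.05, with 0.570 as the smallest, and 3 (Usp2, Ccng1 and Trp53) had an unadjusted p under 0.05. DESeq2 called 2 of them (Usp2 and Ccng1), edgeR without the filter 1 (Usp2) and limma 0. Fitted levels were higher in ATO for 18 and lower for 29, and the median was -0.15 on the log2 scale. On the CPM scale both ATO tumors lay above both PBS tumors for 9 genes (19.1%) and below for 20 (42.6%), where the shares of all genes were again 19.7% and 20.2%. By FPKM 3 (6.38%) lay above and 24 (51.1%) below, against 12.8% and 29.6% of all genes.

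Among these were the inhibitors and partners of Mdm2. Ccng1, a p53 target whose product binds Mdm2, had 54.5 and 48.1 CPM in PBS and 333 and 215 CPM in ATO, and its log2 fold change was 2.42 (SE 0.46) at an edgeR adjusted p of 0.570. The other 5 lay below both PBS tumors in both ATO tumors by CPM, or 83.3% of this role against 20.2% of all genes. They were Cdkn2a, which encodes the Mdm2 inhibitor p19Arf together with p16Ink4a, the ribosomal protein genes Rpl5, Rpl11 and Rpl23, and the nucleolar protein gene Npm1. None of these 5 had an unadjusted edgeR p under 0.05. Cdkn2a was at 139 and 79.8 CPM in PBS and at 22.5 and 1.68 CPM in ATO, or -3.17 on the log2 scale (SE 1.26) at an edgeR adjusted p of 0.588. Its counts do not tell the p19Arf transcript from that of p16Ink4a.

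Of the deubiquitinases, Usp2, which acts on Mdm2, was at 8.68 and 9.47 CPM in PBS and at 91.1 and 32.0 CPM in ATO (log2 fold change 2.76, SE 0.65, edgeR adjusted p 0.570), and the other 4 ranged from -0.89 for Usp42 to 0.096 for Otud5 on the log2 scale. Among 11 further ubiquitin ligase genes, 5 were higher and 6 lower, with Wwp1 the farthest from 0 (log2 fold change 1.30, SE 0.57). The 9 kinase genes ranged from -1.53 for Chek1 to 1.87 for Hipk2, a kinase that phosphorylates p53 after damage. Hipk2 stood at 9.05 and 10.4 CPM in PBS and 57.0 and 13.9 CPM in ATO. The 9 acetylation and methylation enzymes ranged from -0.52 to 0.66, with Sirt1, a deacetylase of p53, the farthest from 0. Of 6 p53-binding cofactors, 5 were lower and Trp53inp1, itself a p53 target, was higher, at 24.0 and 88.9 CPM in PBS and 237 and 77.7 CPM in ATO, with overlapping groups.

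**Figure D5:**
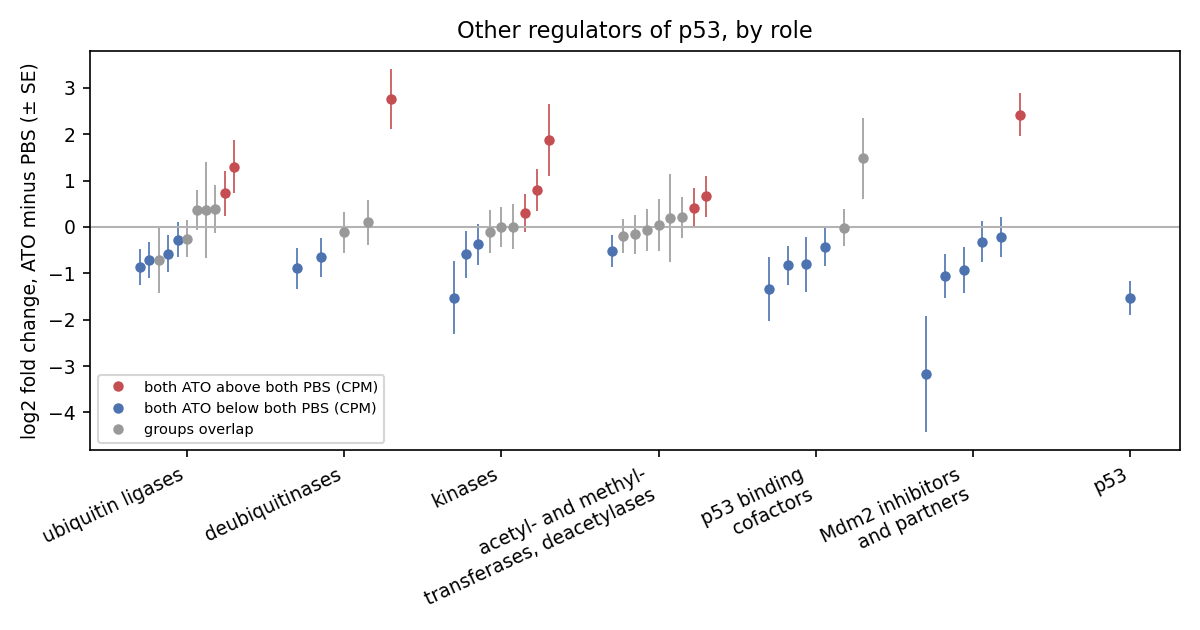
Log2 fold change, ATO minus PBS (edgeR, points with SE), of the 47 other regulators tested, by role. Red marks the 9 genes whose ATO sarcomas both lie above both PBS sarcomas in CPM, blue the 20 that lie below and grey those that overlap. Usp2 at 2.76 and Ccng1 at 2.42 are the highest, and Cdkn2a at -3.17 is the lowest.

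Within groups, all 7 members tested were lower in ATO 2 than in ATO 1 by CPM, as were 50.02% of all genes tested. The fold between the ATO tumors ranged from 1.09 for Cop1 and 1.16 for Rchy1, through 1.38 for Mdm2, 1.80 for Mdm4, 2.02 for Usp7 and 2.44 for Ppm1d, to 15.2 for Trp63. Proliferation markers also differed between these tumors, with sums over 6 genes of 758 CPM in ATO 1 and 66.8 CPM in ATO 2, against 538 and 364 CPM in PBS. Mki67 gave 455 CPM of the sum in ATO 1, and without it the sums were 304 and 42.7 CPM in ATO and 387 and 256 CPM in PBS, so that only ATO 2 lay outside the PBS range. Of the 6 genes, 2 (Cdk1 and Aurkb) lay below both PBS tumors in both ATO tumors, where the share of all genes was 20.2%. The groups overlapped for Mki67, Top2a, Ccnb1 and Birc5, and Mki67 and Birc5 were highest in ATO 1. Between the PBS tumors Mdm2 differed most among the 6 well expressed members, by 1.93-fold. PBS 2 also held most of the endothelial RNA (5095 CPM over 6 genes, against 485 to 1115 in the others), while the leukocyte sum was between 662 and 1238 CPM. The part of proliferation, endothelial or leukocyte RNA in the levels of the members was not tested.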

How the data were processed

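RNA-seq of 4 sarcomas, 2 ATO and 2 PBS as the sample labels group them, was analysed. The authors trimmed reads with cutadapt 1.9.1 after FastQC 0.10.1, aligned them with HISAT2 2.0.1 to GRCm38 and counted reads per gene with HTSeq, and the strand setting is not given in the sources used here. The deposited raw counts were used without change. The deposited FPKM equal the count divided by gene length and total count to within 0.0051 for all 56691 genes. Positions come from GENCODE M21 by identifier, since only 2.83% of shared genes have the deposited position.

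Counts were tested in edgeR 4.0.16 (R 4.3.3, filterByExpr, TMM, quasi-likelihood, Benjamini-Hochberg over 17188 genes, threshold 0.05). Standard errors are the log2 fold change over the root of F. The alternatives were DESeq2 1.42.0, its size factors, other filters, no mitochondrial genes, a replicate block, each tumor left out, and limma 3.58.1 on log2 FPKM with a pseudocount of 1 or 0.1. Exact tests, ratios and figures used Python 3.11.15. On the TMM scale 3 counts corresponded to 0.151 to 0.240 CPM. The members and lists were chosen with earlier results of these data known. Named beside the members are the wider list's genes with an unadjusted p under 0.05 or the largest change of a role, and the 5 nearest to Mdm2, while other neighbours, markers and list members were named after their values were seen. The wider list held 1 misspelt symbol (Synv1), so that gene was not analysed here.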

Additional observations from a re-analysis of the deposited data

How the results depend on the processing

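With DESeq2 754 genes passed the threshold and without a low-count filter 541 did, against 0 in the main test and in every other alternative. Of the members, Trp63 was called in both (adjusted p 0.00078 and 0.0179, log2 fold changes 6.12 and 6.04), and over its other alternatives the adjusted p ranged up to 0.864. The cause was not tested. Members with a higher fitted level in ATO numbered 6, and 3 in limma on log2(FPKM + 1) and on log2(FPKM + 0.1), where the median of all genes was -0.18 and -0.27. With each tumor left out there were 4 to 6. By FPKM 1 member lay above in place of 3. The wider list's median was -0.39 and -0.47 in these limma fits and between -0.28 and -0.16 with each tumor left out, and 12 to 20 of its genes were higher. Reversed values were, for Ppm1d, -0.068 with the replicate block, -0.74 without ATO 1 and -0.13 without PBS 1 (up to 0.57 with another tumor left out), and -0.27, -0.34 and -0.043 in limma with a pseudocount of 1, of 0.1 and with median-of-ratios scaling. For Usp7 they were -0.037, -0.58, -0.17, -0.29, -0.31 and -0.030 in the same order (up to 0.46). For Cop1 they were -0.047 without PBS 2 (up to 0.42) and -0.071 and -0.085 with the pseudocounts of 1 and 0.1. The difference in the log2 ratio of Mdm2 to Mdm4 ranged from -0.13 without PBS 1 to 0.55. Mdm2, Mdm4, Trp63 and Rchy1 kept their direction in every alternative in which they were tested, Mdm2 between 0.45 and 1.40.

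Both groups carry the numbers 1 and 2, but no source says that the numbers pair tumors, and deviations from the group means correlated at 5.0e-05 between tumors of the same number. With the replicate block 0 genes passed, 6 of 7 members became 4 of 7 higher, and no other call changed. With each tumor left out, the lone tumor of a group is assumed to vary like the others.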
